A study of Homo sapiens with 24 samples.

Results

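The 10 genes described here encode enzymes that build triglycerides (*GPAM*, *AGPAT2*, *LPIN1*, *DGAT1* and *DGAT2*), enzymes that break them down (*PNPLA2*, *LIPE* and *MGLL*), and enzymes that make or degrade endocannabinoids (*DAGLA*, *MGLL* and *FAAH*). Every probe whose RefSeq transcript mapped to one of these symbols was taken, which gave 17 probes for the 10 genes, among 24847 genes with a symbol on the array. Expression was measured in U251 cells, an established human glioblastoma line, on 1-colour Agilent microarrays. The study asked which genes respond to G-1, a small-molecule agonist of the G protein-coupled estrogen receptor GPER. The cells had been kept in charcoal-stripped serum and phenol red-free medium to remove steroid hormones, and they were then exposed to the solvent DMSO (0.1% in the labels), to G-1 at its IC50 dose, or to G-1 at 1 µM, each for 24 h or 72 h. Each of these 6 groups had 4 independent replicates, 24 arrays in all, and no group carried any other treatment or genetic change.

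Triglycerides are made from glycerol 3-phosphate by stepwise addition of fatty acids. GPAM adds the first acyl chain and AGPAT2 the second, LPIN1 removes the phosphate to give diacylglycerol, and DGAT1 or DGAT2 adds the last acyl chain. The stored triglyceride is cut back in the reverse order: PNPLA2 (adipose triglyceride lipase) releases the first fatty acid, LIPE (hormone-sensitive lipase) takes diacylglycerol, and MGLL (monoacylglycerol lipase) takes the last step to glycerol. MGLL also degrades the endocannabinoid 2-arachidonoylglycerol, which DAGLA makes from diacylglycerol, whereas FAAH degrades the other main endocannabinoid, anandamide. Glioblastoma cells are known to store fatty acids in lipid droplets.

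All values below are log2 signals after subtraction of the 75th percentile of the same array, so that 1 unit is a 2-fold difference and a value of 0 is the 75th percentile. A probe was tested where, in 1 group or more, all 4 arrays showed it well above background. This held for 14 of the 17 probes, which covered 8 of the 10 members. Differences were tested with limma over all 22970 tested probes with Benjamini-Hochberg adjustment. A gene is written to have risen or fallen where the adjusted p was under 0.05, and it is called changed by more than 2-fold where the fold change also passed 2. Where a gene had several probes, the one that was brightest over all arrays stands for it. Levels of different probes were not compared.

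The 8 arrays of G-1 1 µM lay together on 1 of 3 slides, which was scanned in a second session, so that at a single duration a G-1 1 µM difference and a session difference cannot be told apart. In the first session 41.1% to 44.5% of the spots of an array stood well above background, and in the second 38.0% to 40.7%, and replicates of a group correlated at 0.990 to 0.996. All 8 astroglial and glioma markers, among them *GFAP* and *VIM*, were detected above background on each of the 24 arrays. The 3 measured microglia and leukocyte markers were above background on 0 arrays, as were 4 of 5 adipocyte markers (*ADIPOQ*, *FABP4*, *PLIN1* and *LEP*). Of 3 endothelial markers *PECAM1* was above background on 0 arrays, *CDH5* on 16 and *VWF* on 23. All 4 neuron markers and the fifth adipocyte marker, *CIDEC*, were above background on all 24. *GFAP* moved with treatment, with group means between 4.01 and 7.34, and its part in the results below was not tested. In these bulk samples, fewer cells that express a gene and less RNA per cell cannot be told apart.

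*MGLL* rose with G-1 1 µM at both durations, more so at 72 h, and with G-1 IC50 at 72 h. *MGLL* was the one member that changed by more than 2-fold by its brightest probe. Its level was 2.73 ± 0.22 in DMSO, 3.14 ± 0.21 at G-1 IC50 and 3.60 ± 0.13 at G-1 1 µM after 24 h (SD, n = 4 for every group). After 72 h the 3 levels were 2.54 ± 0.16, 3.28 ± 0.23 and 4.82 ± 0.16. In both durations every G-1 array lay above every DMSO array.

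By array, the DMSO replicates read 2.42, 2.78, 2.78 and 2.94 at 24 h, the G-1 IC50 replicates 3.00, 3.14, 3.44 and 2.98, and the G-1 1 µM replicates 3.51, 3.59, 3.78 and 3.51. At 72 h the DMSO replicates read 2.49, 2.65, 2.67 and 2.34, the G-1 IC50 replicates 3.29, 3.52, 3.35 and 2.98, and the G-1 1 µM replicates 4.74, 5.04, 4.84 and 4.66. From lowest to highest, the groups followed the order DMSO 72 h, DMSO 24 h, G-1 IC50 24 h, G-1 IC50 72 h, G-1 1 µM 24 h and G-1 1 µM 72 h. Neighbours in this order overlapped in their arrays except DMSO 24 h against G-1 IC50 24 h and the last pair, where G-1 1 µM 72 h stood apart from every other group.

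At 72 h, *MGLL* was 4.86-fold higher with G-1 1 µM than with DMSO, a log2 difference of 2.28 (SE 0.13, adjusted p = 1.5e-11). The lower dose gave 1.68-fold, a log2 difference of 0.75 (SE 0.13, adjusted p = 0.00423). At 24 h, G-1 1 µM gave a difference of 0.87 (adjusted p = 1.07e-04), whereas the 0.41 of G-1 IC50 did not pass (adjusted p = 0.511) although its arrays did not overlap those of DMSO. Both doses were compared with the same DMSO arrays.

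The G-1 IC50 result at 72 h depended on the fit. With the slide as a block the difference was 0.78 (adjusted p = 0.00377), and within the slides it was 1.02 on the first (1 treated and 2 DMSO arrays) and 0.63 on the second (3 and 2 arrays). It did not pass when only the 8 arrays of this comparison were fitted (adjusted p = 0.0569), nor by the methods' t-test after adjustment (adjusted p = 0.173).

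A second *MGLL* probe gave the same ordering. It was 1.01 higher with G-1 IC50 at 72 h (SE 0.13, adjusted p = 3.48e-04), which is just past 2-fold, and with the higher dose it rose by 0.69 at 24 h and 2.19 at 72 h. Over the 24 arrays both probes correlated at r = 0.973. Both probes target the same transcript, so they are repeat readings of 1 RNA and not independent genes.

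**Figure D1:**
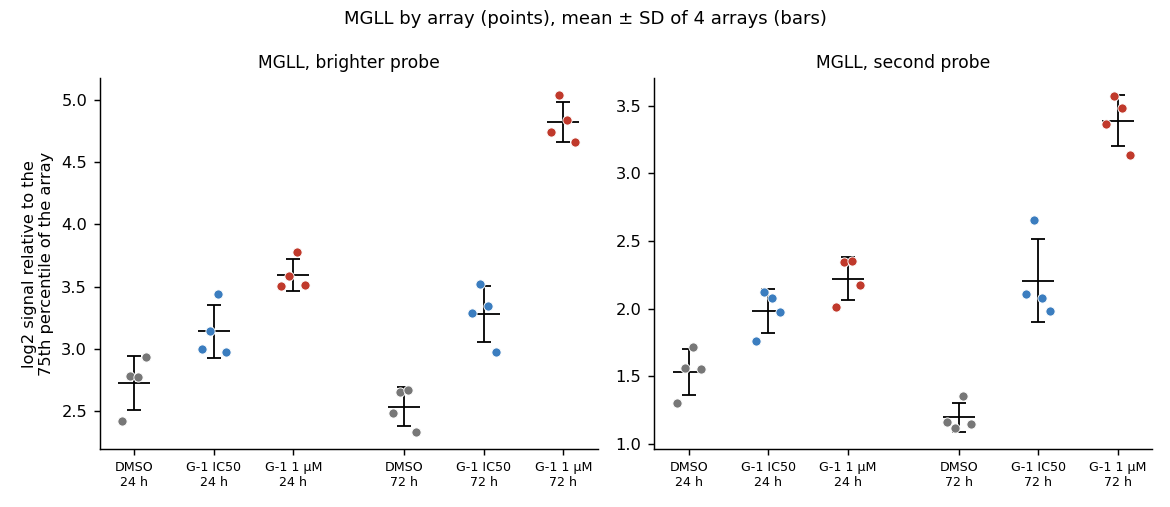
Log2 signal of both MGLL probes (vertical axes, relative to the 75th percentile of the array) on each of the 24 arrays, by treatment and duration (horizontal axes), with points for arrays and bars for the mean ± SD of 4. In both panels the 4 arrays of G-1 1 µM 72 h lie above all others, from 4.66 to 5.04 for the brighter probe, and every G-1 array lies above the DMSO arrays of its duration.

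The dose and duration comparisons of *MGLL* were tested directly. G-1 1 µM exceeded G-1 IC50 by 0.45 at 24 h (SE 0.13, adjusted p = 0.0136) and by 1.53 at 72 h (adjusted p = 3.77e-09). The 24 h value did not pass with the second probe (0.24, adjusted p = 0.193). For the brightest probe it did not pass after the 50th percentile shift (0.29, adjusted p = 0.167) or normexp (0.29, adjusted p = 0.086), nor without G-1 IC50 24 h replicate 4. The G-1 1 µM effect was larger at 72 h than at 24 h by 1.41 (SE 0.18, adjusted p = 9.3e-06), a difference in which a constant offset between the sessions drops out. For G-1 IC50 the corresponding value of 0.33 did not pass (95% interval -0.05 to 0.71). DMSO alone changed *MGLL* by -0.19 between 24 h and 72 h (95% interval -0.46 to 0.08), which did not pass.

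The other lipases did not follow *MGLL*. *PNPLA2* fell at 72 h with G-1 1 µM, *LIPE* rose slightly at 24 h, and neither passed with G-1 IC50.

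The *PNPLA2* arrays at 72 h read 3.10, 2.77, 2.97 and 2.79 in DMSO, 2.85, 2.95, 2.86 and 2.75 with G-1 IC50, and 2.19, 2.21, 2.21 and 2.12 with G-1 1 µM. All 4 arrays of G-1 1 µM lay below all others of that duration. The fall was 1.66-fold, with a log2 difference of -0.73 (SE 0.13, adjusted p = 4.89e-05). At 24 h the difference was -0.19 and did not pass (95% interval -0.46 to 0.07), and the DMSO arrays, 2.59, 2.69, 3.32 and 2.81, spread more widely than those of G-1 1 µM, 2.61, 2.63, 2.78 and 2.62.

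The second *PNPLA2* probe also fell at 72 h, by a smaller amount (-0.33, SE 0.11, adjusted p = 0.0177). Its 4 G-1 1 µM arrays, 1.90, 2.24, 2.28 and 2.06, lay below its DMSO arrays, 2.42, 2.43, 2.42 and 2.51. At 24 h this probe read 0.26 higher with G-1 1 µM (adjusted p = 0.0963), the opposite sign to the brightest probe, and the 2 probes correlated at r = 0.336 over 24 arrays. The G-1 1 µM effect on *PNPLA2* differed between durations, by -0.53 with the brightest probe (adjusted p = 0.029) and by -0.58 with the second (adjusted p = 0.00967). With the brightest probe this difference passed in 10 of 16 fits that left out 1 array.

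The 250 bases before the *PNPLA2* start in RefSeq (GRCh38.p14, chr11:818664-818913, plus strand) are shown because this window was the one, among 9 promoter windows of 6 members, that held a match to a sterol regulatory element, the site read by the lipid-regulating SREBP factors. Capitals mark the match to TCACNCCAC, found on the minus strand at base -153:

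PNPLA2: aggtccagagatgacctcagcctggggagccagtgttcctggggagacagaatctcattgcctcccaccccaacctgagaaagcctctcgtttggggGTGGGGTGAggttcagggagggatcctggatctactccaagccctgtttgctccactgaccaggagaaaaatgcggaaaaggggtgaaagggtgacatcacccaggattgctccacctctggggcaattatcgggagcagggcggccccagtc

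On both strands, this motif occurred in 396 of 35116 RefSeq promoter windows of 300 bases (1.13%). The E-box CACGTG, which does not overlap it in sequence, occurred in 7.26% of all windows and in 0 of the 9 member windows searched. The 6 members whose windows were searched were *LIPE*, *PNPLA2*, *LPIN1*, *GPAM*, *AGPAT2* and *FAAH*. *DGAT1* was left out of the search, and *MGLL*, *DGAT2* and *DAGLA* had no window. A match describes the letters of the window, and binding was not measured.

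*LIPE* read 2.99, 3.00, 2.98 and 2.74 in DMSO at 24 h and 3.28, 3.31, 3.25 and 3.00 with G-1 1 µM. The arrays did not overlap, by a narrow margin between the lowest treated and the highest DMSO array. The difference of 0.28 (SE 0.08, adjusted p = 0.00979) was 1.21-fold. It did not pass after quantile normalization (0.22, adjusted p = 0.0505), the 50th percentile shift (0.20, adjusted p = 0.217) or normexp background correction (0.18, adjusted p = 0.184). At 72 h the *LIPE* difference with G-1 1 µM was 0.03 (95% interval -0.13 to 0.19).

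**Figure D2:**
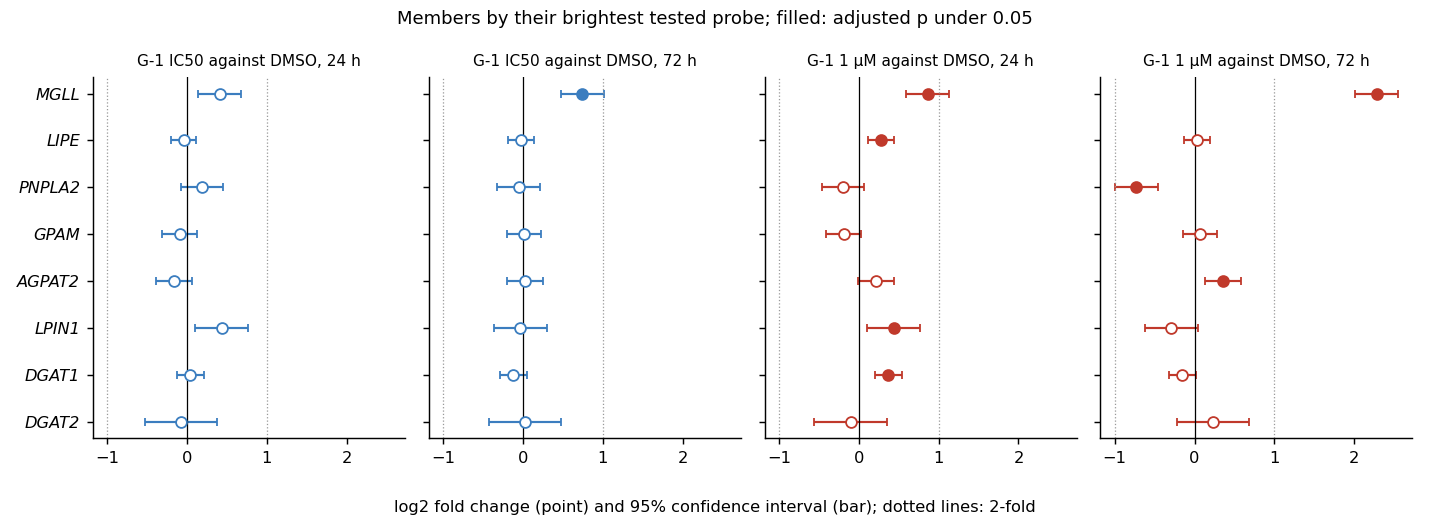
Log2 fold changes against DMSO of the same duration (horizontal axes) of the 8 tested members (vertical axis), in 1 panel per comparison, with 95% confidence intervals as bars, filled points where the adjusted p was under 0.05 and dotted lines at 2-fold. MGLL is the one member to the right of the 2-fold line, at 2.28 with G-1 1 µM for 72 h, and PNPLA2 lies lowest in that panel, at -0.73.

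On the synthesis side, *AGPAT2* rose at 72 h with G-1 1 µM, *LPIN1* rose at 24 h by its brightest probe, the *DGAT1* probes moved in opposite directions at 24 h, and *GPAM* and *DGAT2* passed in none of the 4 comparisons with DMSO. *AGPAT2*, which makes phosphatidic acid, read 7.26, 7.30, 7.27 and 7.33 in DMSO at 72 h and 7.75, 7.67, 7.51 and 7.64 with G-1 1 µM. The arrays did not overlap, and the difference was 0.35 (SE 0.11, adjusted p = 0.00723), or 1.28-fold. After the 50th percentile shift it was 0.28 and did not pass (adjusted p = 0.0672). At 24 h its 4 G-1 1 µM arrays, 7.73, 7.54, 7.59 and 7.54, again lay above DMSO, 7.42, 7.35, 7.37 and 7.39, but the difference of 0.22 did not pass (adjusted p = 0.137).

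*LPIN1*, the phosphatidate phosphatase of this route, read 6.23, 5.90, 6.56 and 6.38 in DMSO at 24 h, 6.34, 6.62, 7.05 and 6.80 with G-1 IC50, and 6.45, 6.38, 7.02 and 6.97 with G-1 1 µM. Both doses averaged 0.44 above DMSO with overlapping arrays. The adjusted p was 0.0432 for G-1 1 µM and 0.768 for G-1 IC50. The G-1 1 µM value passed in 3 of 8 fits that left out 1 array, with differences between 0.31 and 0.55. Among 13 alternative settings it passed in 6, the replicate number as a block among them (adjusted p = 0.0104). It did not pass after quantile normalization (adjusted p = 0.0518), the 50th percentile shift or normexp. Nor did it pass with only the arrays compared, with the slide as a random block, or by the methods' t-test with or without adjustment. No G-1 1 µM array shared a slide with DMSO, so that block cannot remove a slide difference. With G-1 1 µM at 24 h the other *LPIN1* probes read 0.26 (adjusted p = 0.192) and 0.44 (adjusted p = 0.0878) higher, and neither passed.

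At 72 h the brightest *LPIN1* probe read 5.87, 6.13, 5.97 and 6.25 in DMSO and 5.77, 5.71, 5.83 and 5.74 with G-1 1 µM. The treated arrays lay below DMSO, and the difference of -0.29 did not pass (adjusted p = 0.112). A second probe fell by more than 2-fold (-1.09, SE 0.15, adjusted p = 2.56e-06), from 0.80, 0.98, 0.95 and 1.18 to -0.38, -0.06, 0.04 and -0.03. The third probe, assigned to the same transcript as the second, was dim, with group means between -1.99 and -0.97. It read 0.42 higher (adjusted p = 0.0629). The 3 probes therefore did not give one direction for *LPIN1* at 72 h. The change of the G-1 1 µM effect from 24 h to 72 h was -0.73 with the brightest probe (adjusted p = 0.0176), -1.35 with the second (adjusted p = 6.97e-05) and -0.02 with the third (adjusted p = 0.957).

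*DGAT1*, which makes triglyceride in the endoplasmic reticulum, had 3 tested probes that also disagreed. The brightest read 3.86, 3.60, 3.81 and 3.88 in DMSO at 24 h and 4.25, 4.11, 4.10 and 4.17 with G-1 1 µM, a rise of 0.37 (SE 0.08, adjusted p = 0.00216). The second fell in the same comparison, from 0.84, 0.85, 0.83 and 0.90 to 0.48, 0.44, 0.58 and 0.72 (-0.30, SE 0.06, adjusted p = 0.00169). In both probes the arrays of the 2 groups did not overlap, in opposite directions, and the third differed by 0.08 (adjusted p = 0.564).

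At 72 h the second *DGAT1* probe differed by -0.57 (SE 0.06, adjusted p = 1.33e-07), having fallen from 0.91, 0.94, 1.09 and 0.90 to 0.29, 0.52, 0.33 and 0.40. The brightest differed by -0.15 (adjusted p = 0.106) and the third by -0.19 (adjusted p = 0.105). All 3 probes were lower relative to DMSO at 72 h than at 24 h, by 0.52 for the brightest (adjusted p = 0.00165), 0.27 for the second (adjusted p = 0.024) and 0.28 for the third, which did not pass (adjusted p = 0.156). Over the 24 arrays the brightest and the second probe correlated at r = -0.180. No single direction can be given for *DGAT1* at 24 h.

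**Figure D3:**
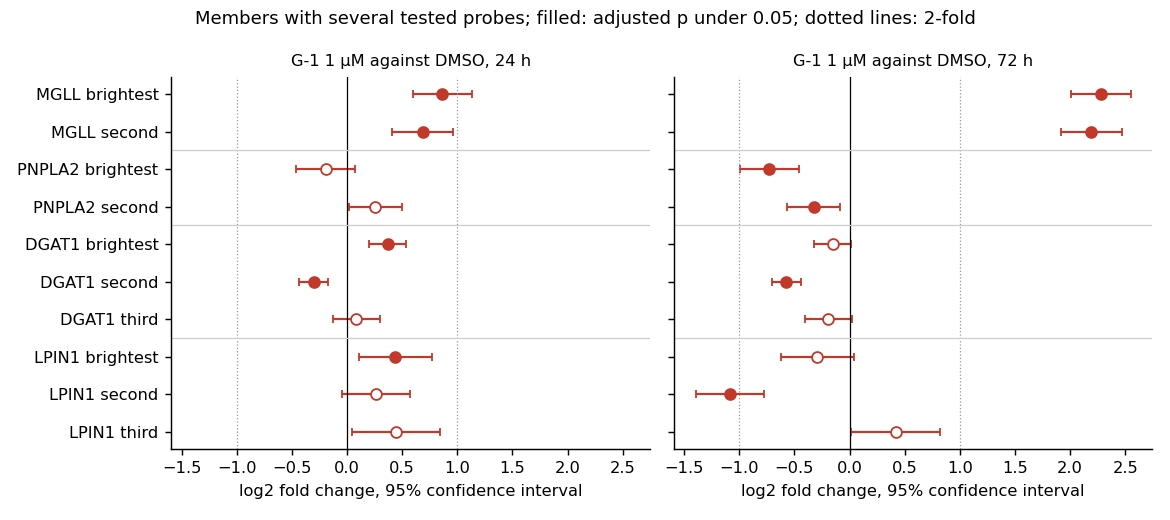
Log2 fold changes with 95% confidence intervals (horizontal axes) for every tested probe of the 4 members with several probes (vertical axis), G-1 1 µM against DMSO at 24 h (left) and 72 h (right), filled where the adjusted p was under 0.05. Both MGLL probes lie together, at 2.28 and 2.19 after 72 h, whereas the DGAT1 probes lie at 0.37 and -0.30 on opposite sides of 0 after 24 h and the LPIN1 probes spread from -1.09 to 0.42 after 72 h.

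*GPAM*, the mitochondrial acyltransferase of the first step, ranged over group means that differed from DMSO by -0.19 to 0.07. Its 95% interval with G-1 1 µM was -0.40 to 0.03 at 24 h and -0.15 to 0.28 at 72 h. *DGAT2*, the second acyltransferase of the last step, was dim, with group means between -1.53 and -0.84, although every one of the 24 arrays detected it above background. Its intervals with G-1 1 µM were wide, -0.55 to 0.35 at 24 h and -0.22 to 0.68 at 72 h. Differences anywhere within these intervals are compatible with these arrays.

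Of the members that make or degrade endocannabinoids, *DAGLA* and *FAAH* were near or below background, whereas *MGLL* was above it on every array. *DAGLA* was well above background on 0 of 24 arrays, with group means between -5.29 and -4.45. The brighter *FAAH* probe was above background on 3 of 4 DMSO arrays and 0 of 4 G-1 1 µM arrays at both durations, and on 3 and 2 of 4 G-1 IC50 arrays at 24 h and 72 h. Its 72 h arrays read -2.68 ± 0.63 in DMSO and -4.22 ± 0.72 with G-1 1 µM (SD, n = 4). The lowest signal above background on the G-1 1 µM arrays averaged -2.82 at 72 h, within 1 SD of the DMSO mean. No bound on a fall can therefore be given. The probe did not enter the fit, and no fold is given at either duration. All G-1 1 µM arrays were scanned in the second session, so dose and session cannot be told apart in these detections. The dimmer *FAAH* probe was above background on at most 1 array of any group.

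Across the 8 tested members, 0 passed with G-1 IC50 at 24 h, against 0.246% of the 14235 genes tested in either direction. By limma's unadjusted p under 0.05 there were 2 (*MGLL* and *LPIN1*), and by the methods' t-test 1 without adjustment and 0 with it. For unadjusted p values, here and below, the share of all genes was not counted, so these counts have no background. At 72 h 1 member rose with G-1 IC50, where 0.429% of all genes did. After 24 h at 1 µM, 4 members rose by their brightest probe (*MGLL*, *LIPE*, *LPIN1* and *DGAT1*) and 0 fell, where 20.0% of all genes rose and 10.5% fell. At 72 h, 2 rose (*MGLL* and *AGPAT2*) and 1 fell (*PNPLA2*), where 35.2% of all genes rose and 31.0% fell. One member rose by more than 2-fold at 72 h, where 4.92% of all genes did. The median difference of the 8 members was 0.25 at 24 h and 0.05 at 72 h, where the median over all genes was 0.04 and 0.03.

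The arrays of the groups compared did not overlap for 1 of 8 members with G-1 IC50 at 24 h (2.76% of all genes) and for 1 at 72 h (7.55%), *MGLL* in both. At the higher dose they did not overlap for 4 of 8 members at each duration, where 30.3% of all genes at 24 h and 58.7% at 72 h did not. Between G-1 1 µM and G-1 IC50, 4 members were higher and 1 lower at 24 h (18.2% and 8.32% of all genes), and 2 were higher and 1 lower at 72 h (35.9% and 29.3%), with *MGLL* the one above 2-fold (4.52% of all genes). These counts used the brightest probes. The lower member was *PNPLA2*, whose second probe gave 0.24 at 24 h (adjusted p = 0.13) and -0.06 at 72 h (adjusted p = 0.676). At 24 h its call passed in 3 of 8 fits that left out 1 array. The second *DGAT1* probe was lower at 24 h (-0.31, adjusted p = 0.00141), whereas the brightest was higher. The split of the genes that passed moved with the scaling, and the 50th percentile shifted the median of all genes between the doses at 24 h from 0.05 to -0.12. At 24 h with G-1 1 µM, 65.5% of the genes that passed were higher with the 75th percentile and 44.2% with the 50th, and between the doses it was 68.6% and 19.1% at 24 h and 55.1% and 36.8% at 72 h. For G-1 IC50 against DMSO it was 88.6% and 100% at 24 h and 47.3% and 66.7% at 72 h, and for DMSO between durations 38.5% and, with normexp, 26.2%.

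The G-1 1 µM effect differed between 72 h and 24 h for 4 of 8 members, more positive for *MGLL* (16.4% of all genes passed in this direction) and more negative for *PNPLA2*, *LPIN1* and *DGAT1* (17.7%). *MGLL* was the one above 2-fold (2.41% of all genes). For G-1 IC50 0 of 8 members passed (0.0140% of all genes in either direction), with 1 at an unadjusted p under 0.05 by limma. DMSO at 72 h against 24 h gave 0 of 8 (3.34% of all genes), with 1 at an unadjusted p under 0.05 by limma, and 4 by the methods' t-test without adjustment and 0 with it.

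The other genes of these pathways were followed in 4 lists. With G-1 IC50 0 of their 37 tested genes passed by limma at either duration. At an unadjusted p under 0.05 there were 1 of 11 synthesis, 3 of 8 lipolysis, 0 of 7 lipid droplet and 1 of 11 endocannabinoid genes at 24 h, and 1, 1, 0 and 2 at 72 h. The share of all genes at this unadjusted threshold was not counted, so nothing is read from these counts. Genes of every list passed at 1 µM, more of them after 72 h than after 24 h, and the shares of all genes that rose and fell, given above, were also larger after 72 h.

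Of 16 other glycerolipid synthesis genes, 11 were tested. At 1 µM 1 rose and 1 fell at 24 h, and 4 rose and 5 fell at 72 h, with a median difference of 0.11 at 72 h. *GPAT3*, which catalyses the same first step as GPAM in the endoplasmic reticulum, rose to 3.78, 3.75, 4.08 and 3.96 at 72 h from 2.21, 2.26, 2.57 and 2.57 in DMSO, by 1.49 (SE 0.11, adjusted p = 3.39e-10). All its G-1 1 µM arrays lay above DMSO, as they did at 24 h with a difference of 0.40 that passed with the 75th percentile (adjusted p = 0.00916) and not with the 50th (0.32, adjusted p = 0.13). *GPAT2*, a mitochondrial isoform, fell more than 2-fold at 24 h (-1.07, adjusted p = 0.00116), a call that 1.18% of all genes shared, and by -0.95 at 72 h (adjusted p = 6.74e-04). Its 24 h level was -0.71 ± 0.34 in DMSO and -1.79 ± 0.23 with G-1 1 µM (SD, n = 4). With normexp background correction, 15 rather than 168 genes fell more than 2-fold at 24 h. *GPAT3* and *GPAT2* thus ran in different directions, with *GPAM* itself at 0.07 at 72 h. *GPAT4* did not pass either, with 0.20 at 24 h (adjusted p = 0.251) and 0.16 at 72 h (adjusted p = 0.281). It was named after its values were seen.

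Of 10 other lipolysis genes, 8 were tested, 4 of which rose and 0 fell at 24 h with G-1 1 µM, and 5 rose and 2 fell at 72 h. The median difference at 72 h was 0.63. *LPL*, the lipoprotein lipase that releases fatty acids outside the cell, rose to 0.50, 0.40, 0.25 and 0.17 from -1.33, -1.25, -1.40 and -1.12, by 1.61 (adjusted p = 2.03e-09), and it had risen by 0.86 at 24 h (adjusted p = 1.22e-04). *G0S2*, an inhibitor of PNPLA2, rose by 1.23 at 72 h (SE 0.21, adjusted p = 4.31e-05), from a DMSO mean of -1.49 ± 0.36 (SD, n = 4) to -0.08, 0.06, -0.59 and -0.42, while at 24 h its difference was 0.11 (adjusted p = 0.716). *PNPLA3*, a lipase of the PNPLA2 family, rose at 24 h by 1.07 (adjusted p = 0.0021), one of the 0.513% of all genes that rose more than 2-fold at 24 h. It was dim, at -2.48 ± 0.18 in DMSO and -1.41 ± 0.31 with G-1 1 µM (SD, n = 4). With normexp background correction, 12 rather than 73 genes rose more than 2-fold at 24 h, so the number of such calls depended on the background correction.

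*ABHD5*, the coactivator of PNPLA2, was named after its values were seen. It rose by 0.98 at 72 h (SE 0.08, adjusted p = 1.5e-09), from 3.01, 3.15, 3.19 and 3.17 in DMSO to 4.08, 4.04, 4.21 and 4.11, just under 2-fold. At 72 h with G-1 1 µM, *PNPLA2* was thus lower while both its coactivator and its inhibitor *G0S2* were higher.

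Of 14 lipid droplet coat and assembly genes, 7 were tested. With G-1 1 µM 2 rose and 0 fell at 24 h, and 3 rose and 2 fell at 72 h, none past 2-fold, with a median of 0.09. The coat protein gene *PLIN3* gave 0.68 at 72 h (adjusted p = 1.26e-08) and was named after its values were seen.

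Of 15 other endocannabinoid genes, 11 were tested. The higher dose raised 3 and lowered 1 at 24 h, and 5 rose and 3 fell at 72 h, with a median of 0.18. *CNR1*, the cannabinoid receptor CB1, fell from 5.94, 5.89, 5.92 and 6.31 in DMSO to 3.79, 3.30, 3.73 and 4.08 at 72 h. The arrays were far apart, and the fall of -2.29 (SE 0.22, adjusted p = 2.41e-08) placed it among the 7.42% of genes lower by more than 2-fold. At 24 h it was -0.64 (adjusted p = 0.0364), and with the replicate number as a block the adjusted p was 3.15e-04. The call was lost with the slide as a random block (-0.63, adjusted p = 0.0816) and without DMSO 24 h replicate 4 (-0.50, adjusted p = 0.122). With G-1 IC50 the *CNR1* difference was -0.40 and -0.63 at 24 h and 72 h, which did not pass (adjusted p = 0.998 and 0.314).

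*FABP7*, a brain fatty acid binding protein that carries lipids in the cytosol, rose by 1.05 at 24 h (adjusted p = 9.74e-04) and by 0.79 at 72 h (adjusted p = 0.00211) with G-1 1 µM. The G-1 IC50 differences were 0.96 and 0.80 and did not pass (adjusted p = 0.065 and 0.0828), with every G-1 IC50 array above DMSO at both durations. Both passed under an intensity trend in the prior variance (adjusted p = 0.0219 and 0.0424). The other hydrolases of 2-arachidonoylglycerol and the second diacylglycerol lipase had smaller differences than *MGLL* at 72 h with G-1 1 µM. *ABHD6* gave 0.28 (adjusted p = 0.00387), *ABHD12* 0.34 (adjusted p = 0.00126) and *DAGLB* 0.34 (adjusted p = 0.00263), and these 3 were named after their values were seen. After the 50th percentile shift *ABHD6* and *DAGLB* did not pass (adjusted p = 0.141 and 0.0513).

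**Figure D4:**
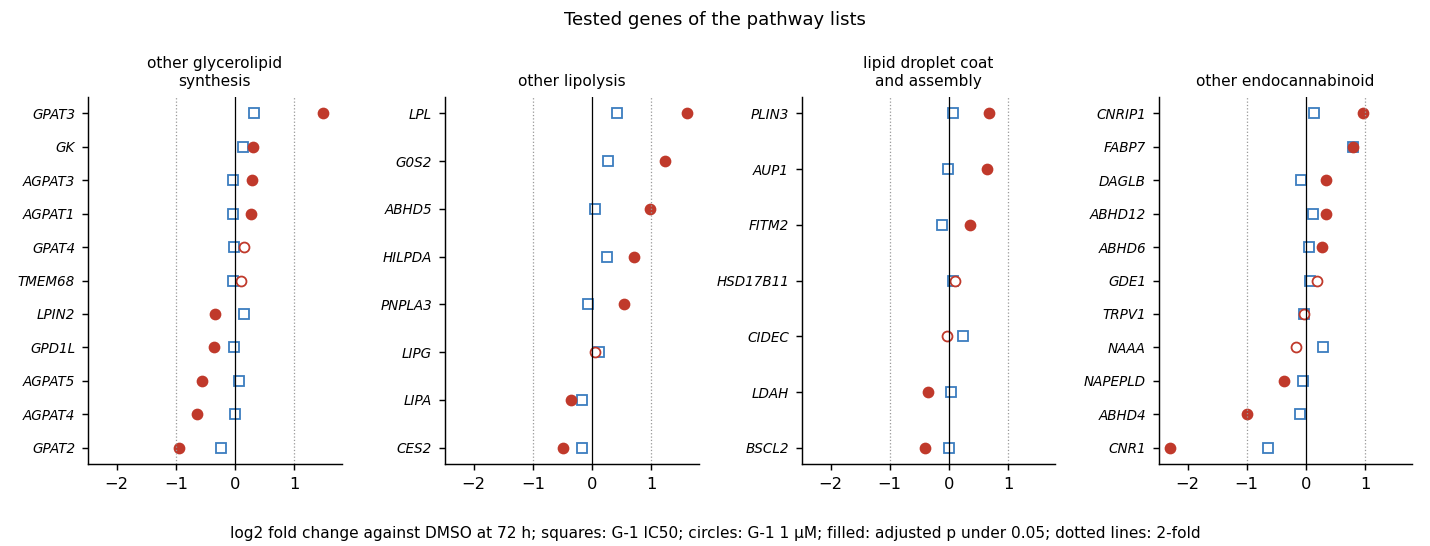
Log2 fold changes against DMSO at 72 h (horizontal axes) of the 37 tested genes of the 4 pathway lists (vertical axes), for G-1 IC50 (squares) and G-1 1 µM (circles), filled where the adjusted p was under 0.05, with dotted lines at 2-fold. All squares are open, and among the filled circles LPL at 1.61, GPAT3 at 1.49 and G0S2 at 1.23 lie to the right of the 2-fold line and CNR1 at -2.29 to the left.

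**Figure D5:**
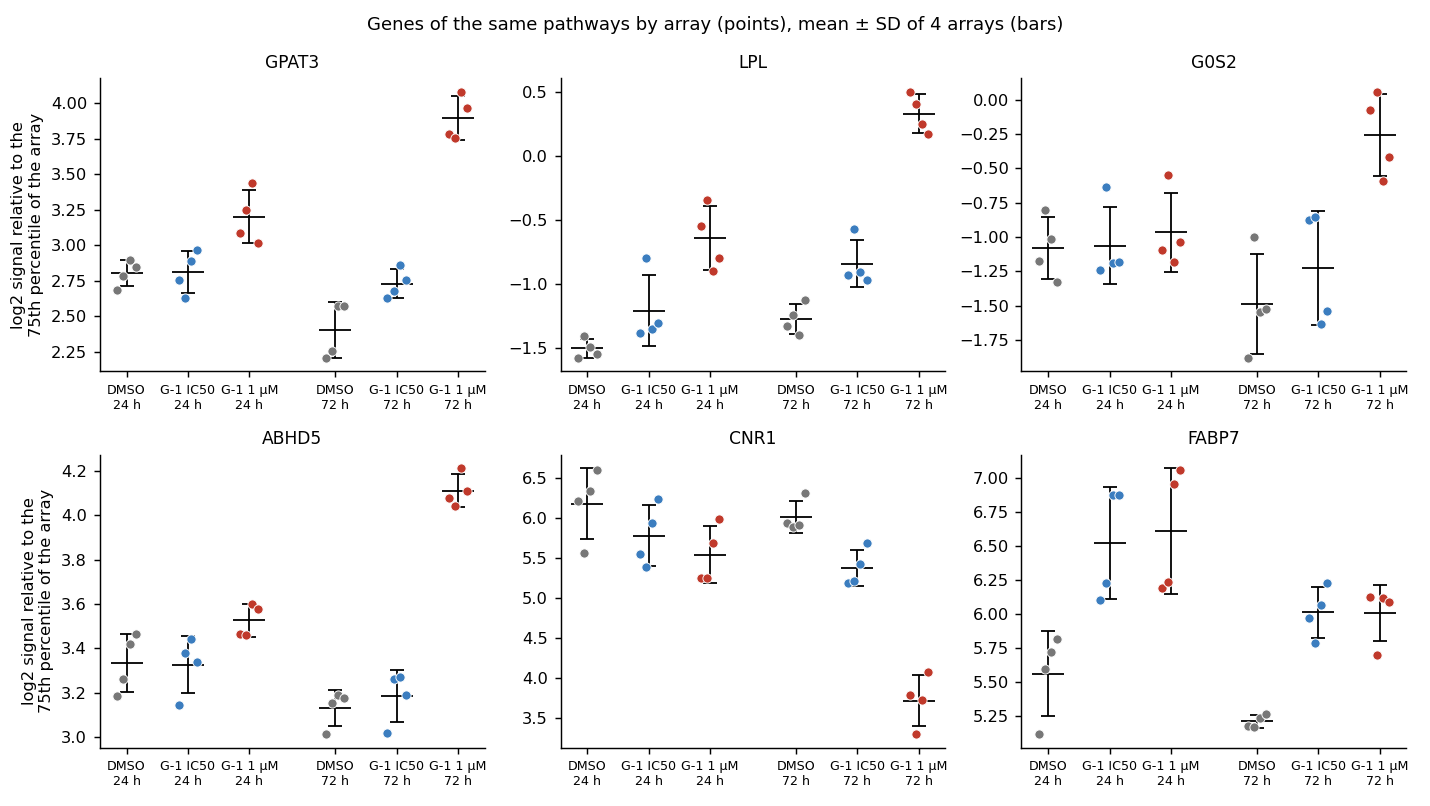
Log2 signal of 6 genes of these pathways on each array (vertical axes, relative to the 75th percentile of the array), by treatment and duration (horizontal axes), with points for arrays and bars for the mean ± SD of 4. GPAT3, LPL, G0S2 and ABHD5 are highest and CNR1 is lowest in G-1 1 µM 72 h, whereas FABP7 lies near 6.01 with both doses at 72 h against 5.22 in DMSO.

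The genes whose levels followed *MGLL* most closely over the 24 arrays were *KCNE5* (Pearson r = 0.964), *EMC7* (0.961), *VGF* (0.955), *FST* (0.955) and *DDX10* (0.953), of the 14235 genes tested. The arrays share 6 treatment groups and 2 sessions, so that r mainly follows the group means and is a description. *FST*, the activin-binding protein follistatin, went from 0.46 ± 0.31 in DMSO to 3.55 ± 0.21 with G-1 1 µM at 72 h, and *VGF*, a secreted neuropeptide precursor, from 0.69 ± 0.15 to 2.69 ± 0.26 (SD, n = 4). *EMC7* covered a narrower range, 6.56 ± 0.05 to 7.06 ± 0.05. Among the members, *PNPLA2* had r = -0.749 with *MGLL*, *AGPAT2* 0.600, and the others lay between -0.267 and 0.328.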

How the data were processed

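RNA of U251 cells in 6 groups of 4 replicates was hybridized to 24 1-colour Agilent arrays. The authors deposited the intensity of each spot as Feature Extraction had processed it (background-subtracted, not normalized between arrays), with flags of 0 or 1 for background and saturation, which are other values than expression, and a log2 table that matched these intensities after a 75th percentile shift and median centring of each probe (median difference 0.0019 log2). The labels' processing notes give Feature Extraction 10.7.3.1. Groups were taken from the sample titles. Of 2 groups (G-1 IC50 at 24 h, G-1 1 µM at 72 h), another entry of the labels names the opposite duration, and the paper gives another DMSO concentration than the labels.

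Outlier spots were left out, log2 intensities were averaged by probe, and each array was shifted to its 75th percentile. A probe entered the test if 1 group or more showed it well above background on every array (22970 of 58118 probes). Symbols came from RefSeq accessions. One limma 3.58.1 model (R 4.3.3) with 6 group means was fitted to all 24 arrays, the P values of the 22970 probes received the Benjamini-Hochberg adjustment, and changes past an adjusted p of 0.05 and a fold change of 2 were called. The script was tested on simulated data. No member spot was saturated, and the number of arrays limits the precision.

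Members and lists were chosen with earlier results of these data known. All 10 members are named, the 5 genes most correlated with each member called against DMSO, and up to 6 called genes of each list. In G-1 1 µM against DMSO at 24 h, deviations of same-numbered arrays correlated at 0.166 to 0.281 in all 4 pairs. With the replicate number as a block there, *AGPAT5*, *ABHD5* and *DAGLB* also passed (adjusted p = 0.0331, 0.0112 and 0.034), and no member's call changed.

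The alternatives were quantile normalization, the 50th percentile, normexp with an offset of 50 on median spot signals, the deposited log2 table, no filter, only probes above background on all 24 arrays, only the arrays compared, an intensity trend, a block for the slide or for the replicate number, the methods' t-test, no fold threshold, any probe of a gene, and each array left out. A block of replicate number by duration was chosen after seeing the data. Protein sequences were not used here.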

Additional observations from a re-analysis of the deposited data

Results flagged for a closer look

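For 4 members the effect of G-1 1 µM against DMSO differed between 72 h and 24 h by a test of the difference itself (limma interaction). The difference was 1.41 for *MGLL* (adjusted p = 9.3e-06), -0.53 for *PNPLA2* (adjusted p = 0.029), -0.52 for *DGAT1* (adjusted p = 0.00165) and -0.73 for *LPIN1* (adjusted p = 0.0176), on the log2 scale. All 4 were measured within the same 2 sessions at both durations.

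In 4 of the 48 groups of 4 arrays examined, 1 array lay far from the other 3, where chance marks about 5% of groups. *LIPE* read 2.74 in DMSO 24 h replicate 4, with the others between 2.98 and 3.00, and 3.27 in DMSO 72 h replicate 3, with the others between 3.09 and 3.11. *PNPLA2* read 2.78 in G-1 1 µM 24 h replicate 3, with the others between 2.61 and 2.63. *GPAM* read 1.68 in DMSO 72 h replicate 3, with the others between 1.82 and 1.84. Leaving out the array in question changed no call of that gene against DMSO. Without 1 of 6 arrays, the *PNPLA2* replicate above among them, the *PNPLA2* difference between durations no longer passed, and it lay between -0.69 and -0.45 over all 16 such fits.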

How the results depend on the processing

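By its brightest probe, no member reversed its direction past the threshold under the alternatives run, but the second *DGAT1* probe passed in the other direction at 1 µM for 24 h (-0.30 against 0.37). Of the single member values, 546 stayed on their side of the threshold, 21 lost it and 17 gained it, and of the counts of members 261 stayed within 1.5 times and 28 moved. With G-1 IC50 at 24 h, where 0 members passed, the block of replicate number by duration gave 2 (*MGLL*, adjusted p = 0.0421, and *LPIN1*, adjusted p = 0.0428) and the methods' t-test without adjustment 1. With G-1 IC50 at 72 h, where 1 passed and 0 were past 2-fold, 0 passed when only the arrays compared were fitted and by the adjusted t-test, and without a fold threshold or with any probe 1 was called. For 1 µM at 24 h, where 4 passed, quantile normalization, the 50th percentile, normexp and the arrays compared alone each gave 2, and 4 were called without a fold threshold. For 1 µM at 72 h, where 3 passed and 1 was called, any probe and quantile normalization each gave 5 passing, 3 were called without a fold threshold, and any probe and no filter each gave 2. Between the doses at 24 h, where 5 passed, the 50th percentile and the adjusted t-test gave 1, normexp 2 and the arrays compared alone 3, the fits without 1 array gave 3 to 5, and 5 were called without a fold threshold. Between the doses at 72 h 3 were called without a fold threshold and 5 passed with any probe. For the 1 µM effect between durations, where 4 passed, 2 passed without the filter, 4 were called without a fold threshold and 2 with any probe. For DMSO between durations, where 0 passed, the t-test without adjustment gave 4. The cause of these shifts was not tested.

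With the replicate number as a block, *MGLL* at G-1 IC50 72 h had an adjusted p of 5.38e-04 and *LPIN1* at 1 µM 72 h passed (adjusted p = 0.0405), while over all genes the passing count went from 35 to 70 and from 129 to 294 for G-1 IC50 at 24 h and 72 h, and from 9416 to 9724 for 1 µM at 72 h. Same-numbered arrays correlated above 0.1 in 3, 3 and 1 of 4 pairs in these comparisons, so that not every pair did and the numbers were not taken to pair the samples there, although 13 of 24 arrays correlated best with their own number. The block changed no other call of a member against DMSO. Dim probes limit *FAAH*, *DAGLA*, *DGAT2* and the third probe of *LPIN1*.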

Other observations

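*HILPDA*, which encodes an inhibitor of PNPLA2 found on lipid droplets, rose with G-1 1 µM by 0.57 at 24 h (adjusted p = 0.0297) and 0.71 at 72 h (adjusted p = 0.00273). The 24 h value did not pass without G-1 1 µM 24 h replicate 1 (0.44, adjusted p = 0.111). With the replicate number as a block its adjusted p was 1.75e-04. In all 6 groups, replicates 1 and 2 read higher than replicates 3 and 4. With G-1 1 µM at 24 h they read 5.19 and 5.08 against 4.49 and 4.48, and with G-1 IC50 at 72 h 5.31 and 5.28 against 4.70 and 4.66. *FABP7* ran the other way in the 24 h groups, with 6.10 and 6.23 against 6.88 and 6.88 with G-1 IC50 and 6.19 and 6.24 against 6.96 and 7.06 with G-1 1 µM. This pattern was noticed after the values were seen and was not tested.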
